A study of Mus musculus with 6 samples.

Results

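The 4 Dppa genes Dppa2, Dppa4, Dppa3 and Dppa5a were followed in Dppa2-deficient mouse embryonic stem cells, with and without a Dppa2 vector. A probe was taken as a member when the RefSeq accession printed in the file belongs to one of these symbols, which gave 4 of 18516 gene symbols and 5 of the 41059 probes kept. Dppa2, Dppa4 and Dppa3 had 1 probe each and Dppa5a had 2, each probe was printed in 1 spot, and all 5 were well above background on all 6 arrays. The rule that finds them uses no measured value, and the genes themselves were picked with earlier results of these data known.

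The Dppa genes (developmental pluripotency associated) share a name because they are transcribed in pluripotent cells and the germline, and they are not 1 family by sequence. Dppa2 and Dppa4, also named ECAT15-2 and ECAT15-1, are neighbouring paralogues on chromosome 16 whose proteins carry a SAP domain, a DNA-binding fold, and act together on chromatin, where they hold promoters of germline and early embryonic genes open to activation. Dppa3, also called Stella or PGC7, lies on chromosome 6 beside Nanog and Gdf3 and encodes a maternal-effect protein that limits Uhrf1 and shields the maternal genome from demethylation after fertilization. Dppa5a, also called Esg1, lies on chromosome 9 and encodes an RNA-binding protein with a KH domain.

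Total RNA was labelled with Cy3 and hybridized to 1-colour Agilent whole mouse genome arrays, in 3 groups of 2 arrays each. The Flag-Dppa2 knockout lines had the genotype 15-2-/- and 15-1CT/CT, which means no wild-type allele of Dppa2 and a conditional targeted allele of Dppa4 on both chromosomes, and carried the vector piggyBac-CAG-Flag15-2-IP, in which the constitutive CAG promoter drives Flag-tagged Dppa2. The mock knockout lines were the same 15-2-/- and 15-1CT/CT lines with the vector piggyBac-CAG-IP, which has no Dppa2. The wild-type lines were 15-2+/+ and 15-1+/+ and were not transduced, so that both comparisons with wild type also contain the Dppa4 allele and the transduction. All lines were derived from blastocysts of 2 mothers on a mixed background of 129Sv, C57/BL6 and a Cre or FLPe transgenic strain of unknown origin, and were grown on gelatin in medium with 15% serum and LIF. Replicate number 1 or 2 marks the mother. Each knockout line, called line 1 and line 2 by that number, gave both a Flag-Dppa2 array and a mock array.

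Between 55.9% and 60.4% of probes were well above background per array, and the signal's 75th percentile was 713 to 861 intensity units. The wild-type arrays stood apart from the knockout arrays in how closely they matched each other. Of 14183 bright probes, 0.444% differed between the 2 wild-type arrays beyond the scanner's 95% error limit, against 24.5% between the Flag-Dppa2 arrays and 21.6% between the mock arrays. They differed by less than measurement noise and may be 1 sample, so wild-type levels are given without an SD and with these arrays averaged into 1 sample limma called no probe in any comparison (2923, 1837 and 2059 had an unadjusted p under 0.05 in mock against wild type, Flag-Dppa2 against mock and Flag-Dppa2 against wild type). Every call below is lost in that setting. No knockout array had a Y-linked gene well above background, whereas wild-type arrays had 3 or 4 of 5. The sex of the lines and the genotype therefore cannot be told apart. All 3 tested, Eif2s3y, Ddx3y and Zfy2, were called lower in mock and in Flag-Dppa2 lines against wild type, where 5.38% and 0.592% of all tested probes were called. These 3 passed the background filter through the wild-type arrays alone and could only be called lower. All 9 measured pluripotent stem cell markers, among them Pou5f1, Sox2 and Zfp42, were well above background on every array. Their summed level, in units of the 75th percentile, was 162 and 208 in Flag-Dppa2, 163 and 215 in mock and 118 and 116 in wild type. In mock against wild type 1 of them, Utf1, was called higher, where 5.38% of all tested probes were called. Utf1 was not called with the replicate block or without either mock array. Zfp42 was read at 9277 and 58744 intensity units in Flag-Dppa2, 9597 and 62319 in mock and 9713 and 10569 in wild type, so line 2 stood apart in this marker. In Flag-Dppa2 against mock limma called none of the 9, with 3 at an unadjusted p under 0.05, Pou5f1 higher and Esrrb and Utf1 lower. Pou5f1 was read at 32577 and 20530 intensity units in Flag-Dppa2, 9558 and 9522 in mock and 6595 and 5462 in wild type. Its limma adjusted p was 0.108 in Flag-Dppa2 against mock and 0.0511 in Flag-Dppa2 against wild type. Of 8 primitive endoderm markers limma called none in any comparison, with 3 at an unadjusted p under 0.05 in mock against wild type, and their summed level was 2.77 and 1.98 in Flag-Dppa2, 1.70 and 1.82 in mock and 1.29 and 1.26 in wild type. Both Flag-Dppa2 arrays lay on the second slide and the other 4 arrays on the first, so slide and vector cannot be told apart in comparisons with Flag-Dppa2.

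Dppa2 was the member with the widest range, 4.23 log2 units over the 6 arrays. Its processed signal was 760 and 918 intensity units on the Flag-Dppa2 arrays, 189 and 186 on the mock arrays and 3583 and 3602 on the wild-type arrays. The 3 groups did not overlap, with mock lowest, Flag-Dppa2 between and wild type highest. Signals of the 6 arrays were put on 1 scale as log2 over the 75th percentile of the array, and on that scale Dppa2 stood at 0.15 ± 0.30 (SD, n = 2) in Flag-Dppa2, -2.05 ± 0.08 (SD, n = 2) in mock and 2.09 in wild type.

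**Figure D1:**
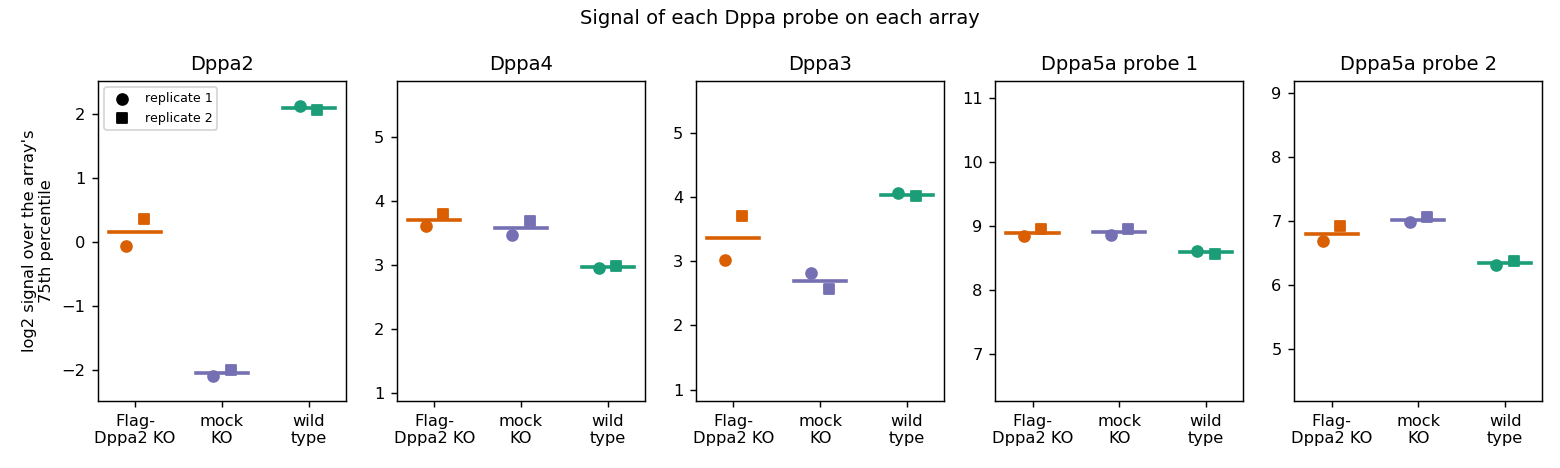
Signal of each of the 5 Dppa probes (y axis: log2 over the array's 75th percentile, every panel spanning the same number of log2 units) on the 6 arrays by group. Circles are replicate 1, squares replicate 2 and bars the group mean. Dppa2 falls into 3 separate levels, with means of 0.15 in Flag-Dppa2, -2.05 in mock and 2.09 in wild type, while both probes of Dppa5a and the Dppa4 probe are higher on every knockout array than on both wild-type arrays.

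Groups were compared by limma over all 24841 probes well above background on at least 2 arrays, and a call needed an adjusted p (Benjamini-Hochberg) under 0.05. An unadjusted p under 0.05 was common, at 6595 of these probes in mock against wild type. It was met by 3142 in Flag-Dppa2 against mock and 5285 in Flag-Dppa2 against wild type. Counts of unadjusted p in the gene lists are to be read beside these numbers. Of the 5 Dppa probes, 1 was called in the mock knockout against wild type, where 5.38% of all tested probes were called, and it was Dppa2. Dppa2 fell 17.7-fold in mock lines (log2 difference -4.14, SE 0.17, limma adjusted p = 0.00658). That adjusted p was 0.136 with the wild-type arrays averaged, and 0.127 and 0.13 without wild-type replicate 1 or 2, so the call rests on counting them as 2 samples. The 2 lines were alike, with wild type 18.4-fold above mock line 1 and 17.0-fold above mock line 2.

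The mock signal of Dppa2 was not at background. Both mock arrays were well above background at 189 and 186 intensity units, with a scanner error of at most 10.5% of the signal. Whether the probe lies in the deleted part of Dppa2 or in the sequence carried by the vector was not analysed here, so the residual signal checks neither the knockout nor the size of what the vector returned.

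Dppa2 rose 4.61-fold in Flag-Dppa2 against mock (log2 difference 2.20, SE 0.17, limma adjusted p = 0.0326), where 0.584% of all tested probes were called. In line 1 the Flag-Dppa2 array was 4.13-fold above mock and in line 2 it was 5.14-fold above mock. As a share of the linear distance between mock and wild type, the Flag-Dppa2 signal stood at 18% in line 1 and 25.8% in line 2. The adjusted p was 0.0728 with the replicate number as a block, which pairs the arrays of a line, 0.199 with the wild-type arrays averaged and 0.0721 to 0.199 when any 1 array was left out. Dppa2 was the one Dppa probe called here.

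Flag-Dppa2 lines remained below wild type, 3.84-fold (log2 difference -1.94, SE 0.17, limma adjusted p = 0.0425), where 0.592% of all tested probes were called. Wild type was 4.45-fold above the Flag-Dppa2 array of line 1 and 3.31-fold above that of line 2. The call was lost with the replicate block (adjusted p = 0.0933), with wild type averaged (0.468) and when any 1 array was left out (0.0875 to 0.388). The 3 comparisons share arrays pairwise, so the 3 values are not independent of each other.

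Dppa4, the paralogue and partner of Dppa2, was read at 9589 and 9869 intensity units on the Flag-Dppa2 arrays, 8911 and 9479 on the mock arrays and 6373 and 6804 on the wild-type arrays. All 4 knockout arrays were above both wild-type arrays, and the Flag-Dppa2 and mock arrays overlapped on the scaled level, at 3.6 and 3.79 log2 units in Flag-Dppa2 against 3.46 and 3.68 in mock. The level order was therefore Flag-Dppa2, mock, wild type from high to low, with the first pair not separated. Against wild type, Dppa4 had a log2 difference of 0.60 in mock (95% interval 0.25 to 0.95, limma adjusted p = 0.0781) and of 0.73 in Flag-Dppa2 (95% interval 0.37 to 1.08, adjusted p = 0.0926), and neither was called. The intervals are those of single probes from the fit, without adjustment for the number of probes.

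The difference in Dppa4 between Flag-Dppa2 and mock was 0.13 (95% interval -0.23 to 0.48, limma adjusted p = 0.791). Line 1 had 0.14 and line 2 had 0.11. The interval leaves room for a difference of up to 0.48 log2 units, so it does not show that the vector left Dppa4 as it was. The knockout lines carry the CT allele of Dppa4 and the wild-type lines do not, and its part in the level of this probe was not tested. The summed pluripotency markers were higher on the 4 knockout arrays as well, and their part was not tested.

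Dppa3, the maternal-effect gene, was read at 6416 and 9336 intensity units on the Flag-Dppa2 arrays, 5725 and 4406 on the mock arrays and 13695 and 13995 on the wild-type arrays. The 3 groups did not overlap, in the same order as for Dppa2, with mock lowest and wild type highest. The Flag-Dppa2 arrays were farther apart than those of any other Dppa probe, at a scaled level of 3.36 ± 0.49 (SD, n = 2), against 2.70 ± 0.17 (SD, n = 2) in mock and 4.04 in wild type. The log2 difference between mock and wild type was -1.34 (SE 0.26, 95% interval -2.04 to -0.65), which is 2.54-fold, and it was not called (limma adjusted p = 0.0625). Its adjusted p fell on the called side, between 0.0396 and 0.0485, with normexp background correction, quantile normalization, the deposited log2 values, an intensity trend and within the first slide, and it was 0.368 with the wild-type arrays averaged.

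The 2 lines stood apart in Dppa3 between Flag-Dppa2 and mock. In line 1 the Flag-Dppa2 array was 1.15-fold above mock, and in line 2 it was 2.20-fold above mock, which is 11.2% and 68.0% of the linear distance to wild type. With 1 array per line and group this difference between lines has no test. Over both lines the log2 difference of Flag-Dppa2 from mock was 0.67 (95% interval -0.02 to 1.36, limma adjusted p = 0.409) and that of Flag-Dppa2 from wild type was -0.68 (95% interval -1.37 to 0.02, adjusted p = 0.243). Neither was called. The Flag-Dppa2 array of line 2 also had the higher Dppa2 signal, 918 against 760 intensity units in line 1, and a link between the 2 genes' levels was not tested.

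Markers of other cells were read beside the Dppa3 values. Of 6 tested primordial germ cell markers, Ddx4 and Dazl were called lower in mock against wild type, where 5.38% of all tested probes were called. None of the 6 was called higher. Ddx4 and Dazl were not well above background on either mock array. Dazl entered the fit through the wild-type arrays alone and could only be called lower. The 6 had a summed linear level of 6.71 and 13.4 in Flag-Dppa2, 6.03 and 7.83 in mock and 15.1 and 14.4 in wild type. Tfap2c made up most of these sums, at 3593 and 8071 intensity units in Flag-Dppa2, 4169 and 4241 in mock and 8071 and 7938 in wild type. Ddx4 (133.8 and 43.5) and Dnd1 (1402 and 1004) were instead higher in line 1 of Flag-Dppa2. No germ cell marker was called by limma in Flag-Dppa2 against mock, with 1 at an unadjusted p under 0.05. Of 10 tested fibroblast and feeder cell markers, 3 were called lower in mock against wild type, where 5.38% of all tested probes were called. These 3, Loxl1, Mmp2 and Fbn1, were also called higher in Flag-Dppa2 against mock, where 0.584% of all tested probes were called. None of the 3 was called in Flag-Dppa2 against mock with the replicate block, in the 4 knockout arrays alone or without any 1 wild-type or Flag-Dppa2 array, and 1 was called with normexp. Loxl1 and Fbn1 were not well above background on either mock array. They entered the fit through the Flag-Dppa2 and wild-type arrays and could only be called lower in mock, so the sizes of their changes are uncertain. Their mock signals were set no lower than the lowest signal counted as above background on the array. The folds were then 20.3 and 10.2 for mock below wild type, and 5.33 and 5.99 for Flag-Dppa2 above mock. Ddx4, at 31.4 intensity units on mock array 1, was not counted as above background, so these folds are not minimums. The summed level of the 13 measured fibroblast markers was 3.28 and 3.17 in Flag-Dppa2, 2.41 and 2.63 in mock and 6.35 and 6.70 in wild type. The fibroblast markers Lum, Col6a1 and Col6a2 were not well above background on any array, and Col1a1, a main fibroblast collagen, was read at 267 and 49.1 intensity units in Flag-Dppa2, 250 and 63.8 in mock and 1407 and 1445 in wild type. No test of these markers together with Dppa3 was run, and the part of either cell type in the Dppa3 values was not tested. In bulk RNA, fewer cells with a transcript and less of it per cell cannot be told apart.

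Dppa5a, the KH-domain RNA-binding gene, was measured by 2 probes, called probe 1 (the brighter) and probe 2. Probe 1 was read at 363645 and 354829 intensity units on the Flag-Dppa2 arrays, 378182 and 367788 on the mock arrays and 322690 and 327974 on the wild-type arrays. Between 1 and 6 probes of an array were brighter than probe 1, and no spot was marked as saturated. Probe 2 was read at 81867 and 86414 on the Flag-Dppa2 arrays, 102470 and 98498 on the mock arrays and 65360 and 71189 on the wild-type arrays. Both probes were higher on every knockout array than on both wild-type arrays.

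Against wild type, probe 2 had a log2 difference of 0.68 in mock (95% interval 0.35 to 1.00, limma adjusted p = 0.0552) and 0.47 in Flag-Dppa2 (95% interval 0.14 to 0.79, adjusted p = 0.142). Probe 1 had smaller differences, 0.32 in mock (95% interval 0.04 to 0.59, limma adjusted p = 0.149) and 0.31 in Flag-Dppa2 (95% interval 0.03 to 0.58, adjusted p = 0.202). None of these was called. For probe 2 in mock the adjusted p lay between 0.0259 and 0.0482 with normexp, quantile normalization, the deposited log2 values, an intensity trend and a filter for probes above background on all 6 arrays, and at 0.379 with the wild-type arrays averaged.

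The 2 probes of Dppa5a disagreed in size. The log2 distance of probe 1 over probe 2 was 2.15 and 2.04 on the Flag-Dppa2 arrays, 1.88 and 1.90 on the mock arrays and 2.30 and 2.20 on the wild-type arrays, and was thus shorter on all knockout arrays than on the wild-type arrays. Between Flag-Dppa2 and mock, probe 2 had a log2 difference of -0.21 (95% interval -0.53 to 0.11, limma adjusted p = 0.572) and probe 1 of -0.01 (95% interval -0.28 to 0.26, adjusted p = 0.99). The reference table lists 2 Dppa5 pseudogenes, Dppa5b and Dppa5c, near Dppa5a, and which copies the probes can bind was not analysed here.

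**Figure D2:**
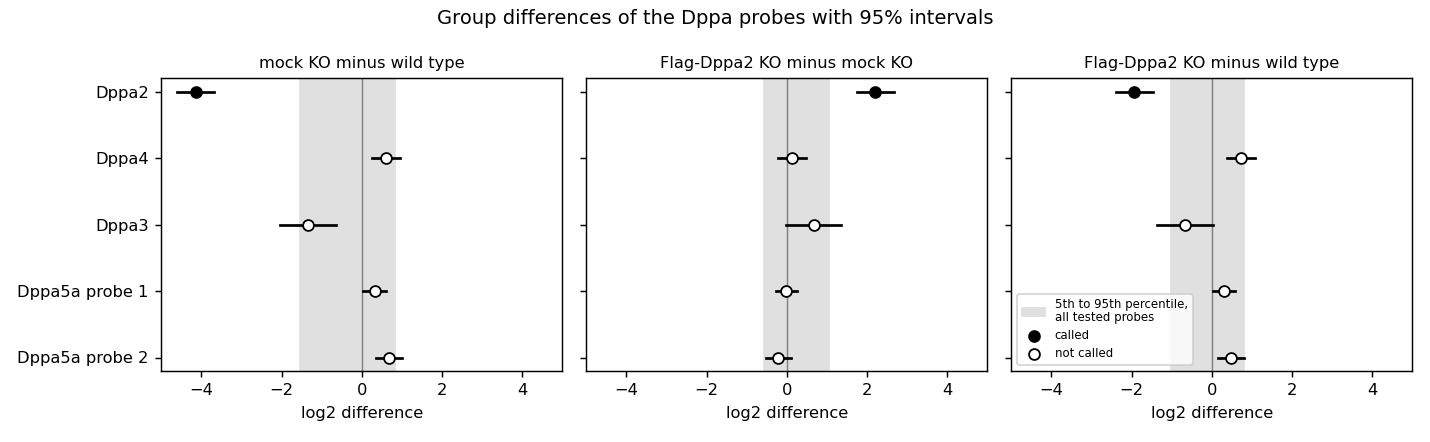
Log2 differences of the 5 Dppa probes in the 3 comparisons (points, filled where called) with 95% intervals of the limma fit; the grey band spans the 5th to 95th percentile of all 24841 tested probes. Dppa2 lies outside the band in all 3 panels at -4.14, 2.20 and -1.94, and is the filled point in each.

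Set side by side, Dppa2 and Dppa3 were lower on both mock arrays than on both wild-type arrays, and Dppa4 and both Dppa5a probes were higher. This gave 5 of 5 probes whose arrays did not overlap between mock and wild type, where 65.3% of all tested probes did not overlap, so that a lack of overlap by itself says little here. The corresponding counts were 3 of 5 between Flag-Dppa2 and mock, against 36.4% of all tested probes, and 5 of 5 between Flag-Dppa2 and wild type, against 59.9%. The log2 differences of Dppa4, Dppa3 and Dppa5a in mock all lay between the 5th and 95th percentile of all tested probes, -1.53 and 0.82, and that of Dppa2 did not.

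Between Flag-Dppa2 and mock, Dppa2 and Dppa3 were higher and Dppa5a probe 2 lower on both Flag-Dppa2 arrays than on both mock arrays. The median over all tested probes was 0.05 for mock against wild type, 0.00 for Flag-Dppa2 against mock and 0.03 for Flag-Dppa2 against wild type.

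The genes with array patterns most like Dppa2 were sought among 19369 tested probes with a symbol, by the root mean square difference between log2 levels centred on their mean over the 6 arrays. The closest was D630039A03Rik, a gene without a known role, at 0.14 log2 units (Pearson r 0.999 over the 6 arrays, which form 3 groups). Its signal was 127 and 151 intensity units in Flag-Dppa2, 35.8 and 39.5 in mock and 588 and 589 in wild type. It was chosen for its likeness to Dppa2 on these arrays, so the values that follow describe that likeness and are not evidence beside Dppa2. It had log2 differences of -3.85 in mock against wild type (SE 0.18, limma adjusted p = 0.00744), 1.93 in Flag-Dppa2 against mock (adjusted p = 0.0476) and -1.92 in Flag-Dppa2 against wild type (adjusted p = 0.0479). Its Flag-Dppa2 signal stood at 17.8% of the distance from mock to wild type in line 1 and 24.5% in line 2. It was called in Flag-Dppa2 against mock in 1 of 17 alternatives (adjusted p 0.0425 to 0.24, and 0.0887 with the replicate block), and with wild type averaged the adjusted p of mock against wild type was 0.136.

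The next closest to Dppa2 were Loxl1, which encodes a lysyl oxidase of the extracellular matrix, at 0.22 and the zinc finger gene Zscan5b at 0.23. Loxl1 was read 20.3-fold lower in mock than in wild type and Zscan5b 12.7-fold lower, with neither mock array well above background for either gene. Such a fold sets the wild-type mean against the higher of the probe's own mock signal and the lowest signal counted as above background. It is not a minimum. With normexp their log2 differences were -1.52 and -1.06, so the closeness of these dim probes to Dppa2 depends on the background correction.

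For Dppa3 the closest patterns were Myom3, a muscle M-band protein gene, at 0.09 log2 units, Fsip1, a sperm fibrous sheath interacting protein gene, at 0.11 and Stra6l, a gene related to a retinol transporter, at 0.11. Fsip1 had scaled levels of -2.89 and -2.48 log2 units in Flag-Dppa2, -3.19 and -3.6 in mock and -2.09 and -2.15 in wild type. It had a log2 difference of -1.27 in mock against wild type (SE 0.21, limma adjusted p = 0.0496), and it was not called with quantile normalization (0.0531), the deposited log2 values (0.0529) or no filter (0.101), with the replicate block (0.0806), with wild type averaged (0.343) or when any 1 array was left out (0.0609 to 0.33). Its Flag-Dppa2 array was 2.17-fold above mock in line 2 and 1.24-fold in line 1, a difference that its choice by likeness to Dppa3 carries with it. A dimmer probe of Fsip1 was not called. Myom3 and Stra6l were not called.

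**Figure D3:**
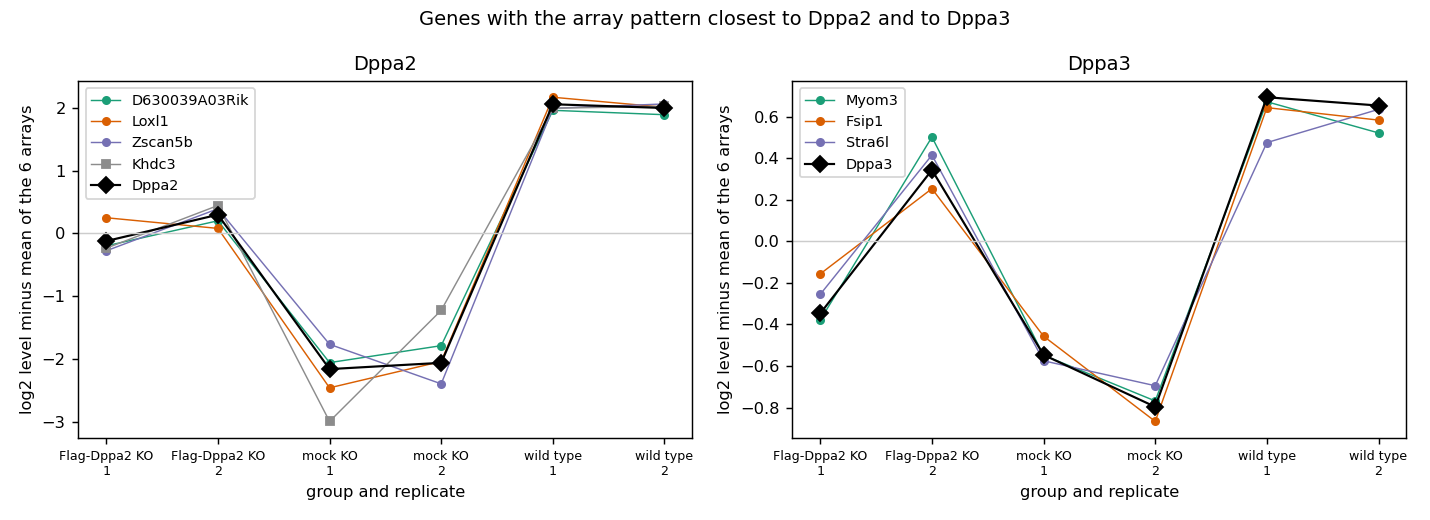
Levels on the 6 arrays (y axis: log2 minus the mean of the 6 arrays) for Dppa2 with its 3 closest genes and Khdc3, and for Dppa3 with its 3 closest genes. Black diamonds are the Dppa gene and coloured circles the others. D630039A03Rik follows Dppa2 within 0.14 log2 units (root mean square), and Khdc3 (grey squares) is lower in mock line 1 than in mock line 2.

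Genes tied to the Dppa genes by name, protein family or function were read from short lists. Dppa1, the other gene of that name on the array, was not well above background on any array. Of 8 ECAT genes, found like Dppa2 as transcripts enriched in embryonic stem cells, 6 were tested. In mock against wild type 1 was called lower and 5 were not called, where 5.38% of all tested probes were called. The median log2 difference was 0.12, against 0.05 over all tested probes. The member called was Khdc3, also known as Filia or ECAT1, which guards genome stability in embryonic stem cells and early embryos. Fbxo15, Eras, Dnmt3l, Gdf3 and Sox15 were not called, with log2 differences from -0.81 for Fbxo15 to 0.74 for Dnmt3l.

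Khdc3 is also a KH-domain gene of the family of Dppa5a. Its signal was 2125 and 3065 intensity units on the Flag-Dppa2 arrays, 320 and 995 on the mock arrays and 10295 and 11069 on the wild-type arrays. The groups did not overlap, and the mock arrays were far apart on the scaled level, at -1.34 in line 1 and 0.43 in line 2. Khdc3 fell 17.4-fold in mock against wild type (log2 difference -4.12, SE 0.64, limma adjusted p = 0.0438). In Flag-Dppa2 against mock it had a log2 difference of 2.22 (adjusted p = 0.289) and was not called, with 6.81-fold in line 1 and 3.20-fold in line 2. The mock call was lost within the first slide (adjusted p = 0.0729), without a filter (0.0806), with the replicate block (0.0523), with wild type averaged (0.313), without mock replicate 1 (0.0588) and without either wild-type or either Flag-Dppa2 array (0.0729 to 0.293).

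Of the 5 listed KH-domain genes of that family, Khdc1a, Khdc1b and Khdc1c were not well above background on any array and 2 were tested. Ooep, a maternal gene next to Dppa5a, was read at 9903 and 12212 intensity units in Flag-Dppa2, 13849 and 16809 in mock and 19014 and 18881 in wild type. Its log2 difference in mock against wild type was -0.19 (limma adjusted p = 0.628), where Dppa5a probe 2 had 0.68.

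Of 10 genes of DNA methylation tied to Dppa3, among them its target Uhrf1, 9 were tested. In mock against wild type 1 was called lower and 8 were not called (median 0.12), where 5.38% of all tested probes were called. The gene called was Dnmt3b, a de novo DNA methyltransferase, at 16711 and 14773 intensity units in Flag-Dppa2, 14207 and 11723 in mock and 22371 and 23747 in wild type. It fell 1.65-fold in mock (log2 difference -0.72, SE 0.10, limma adjusted p = 0.0388), and it was not called within the first slide (0.0602), without a filter (0.109), with the replicate block (0.0673), with wild type averaged (0.344) or when any 1 array was left out (0.0602 to 0.321). Uhrf1, the maintenance methylation factor that Dppa3 protein binds, had a log2 difference of 0.46 (adjusted p = 0.198). In Flag-Dppa2 against mock, limma called none of the 9, with 1 at an unadjusted p under 0.05.

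Dppa2 and Dppa4 share the SAP domain with other nuclear proteins. Of 13 such genes tested, among them Safb, Hnrnpu, Acin1 and the Pias genes, limma called none in mock against wild type. An unadjusted p under 0.05 was met by 4 of the 13, against 6595 of all 24841 tested probes. The log2 differences of the 13 genes lay between -0.55 and 0.55 (median 0.22). With normexp, quantile normalization, the deposited log2 values, an intensity trend or the filter for all 6 arrays, 1 was called. In Flag-Dppa2 against mock limma called none, with 1 at an unadjusted p under 0.05.

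The neighbours of Dppa3 on chromosome 6 were read because that stretch holds several genes of pluripotent cells. Of the 10 nearest named genes, 7 were tested, among them Gdf3, a growth factor, and Slc2a3, a glucose transporter. limma called none in mock against wild type, with 1 at an unadjusted p under 0.05, and the median was 0.01, where Dppa3 had -1.34. Gdf3, next to Dppa3, was read at 4207 and 4878 intensity units in Flag-Dppa2, 4544 and 5355 in mock and 4066 and 4296 in wild type (log2 difference in mock against wild type 0.36, adjusted p = 0.32). In Flag-Dppa2 against mock limma called none of the 7, with 1 at an unadjusted p under 0.05.

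Of the 10 nearest named genes of Dppa5a on chromosome 9, 5 were tested. limma called none in mock against wild type (median -0.19) and none in Flag-Dppa2 against mock (median -0.06), with 2 at an unadjusted p under 0.05 in each. Ddx43, a helicase gene of the germline, was nearest to the threshold, with a log2 difference of -0.73 in mock (adjusted p = 0.055). The DNA sensor gene Cgas had -1.10 (adjusted p = 0.0769).

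**Figure D4:**
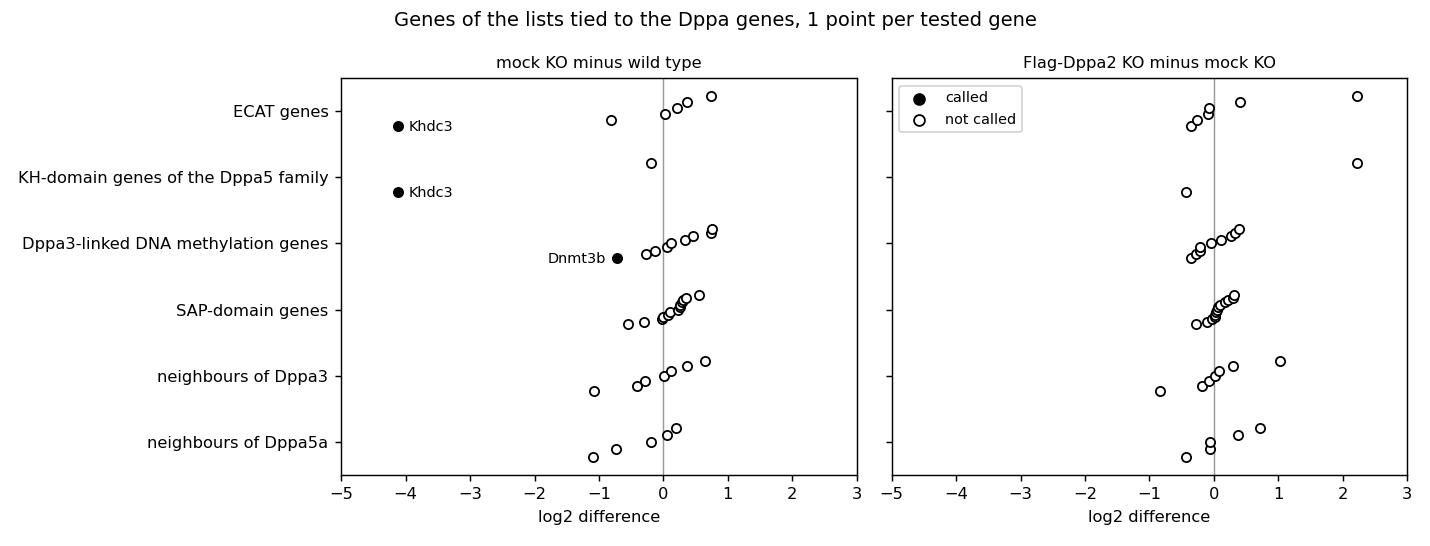
Log2 differences of the tested genes of 6 lists tied to the Dppa genes (1 point per gene, filled where called), for mock against wild type and for Flag-Dppa2 against mock. Khdc3, which is on 2 lists, and Dnmt3b are the filled points, at -4.12 and -0.72 in mock against wild type, and no point is filled for Flag-Dppa2 against mock.

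Of 7 tested genes known to need Dppa2 or Dppa4, 6 were called lower in mock against wild type and none higher, where 5.38% of all tested probes were called. The number called in either direction was 4 with normexp, 3 with no filter and 7 with quantile normalization. The list comes from studies of such knockouts, possibly on these samples, so its direction is not independent evidence. Sftpd, a lung surfactant protein gene, went the other way, with a log2 difference of 0.81 (adjusted p = 0.055), and it was called higher with quantile normalization (0.0456), the deposited log2 values (0.0462) and the filter for all 6 arrays (0.0482). None of the 6 was well above background on a mock array, so the sizes of their falls are uncertain. The folds below set mock no lower than the lowest signal counted as above background on its array. Brighter signals also missed that mark, such as Ddx4 at 31.4 intensity units on mock array 1, so the folds are not minimums. Zscan4c, Tcstv1 and Tcstv3 entered the fit through the wild-type arrays alone and could only be called lower, so the count of 6 is a description. Syce1, a synaptonemal complex gene, was 225-fold lower in mock than in wild type on this reading (limma adjusted p = 0.00804), and Mael, a piRNA pathway gene, 102-fold lower (0.0338). Zscan4c, a gene of the 2-cell-like state, was 49.1-fold lower (0.0164) and Tcstv3, the median of the 7, 18.4-fold lower (0.0389). Syce1 was called higher in Flag-Dppa2 against mock (76.9-fold with the same floor, limma adjusted p = 0.0221), where 0.584% of all tested probes were called. Its log2 difference there was 6.95 as reported and 3.04 with normexp. The other 6 were not called. The Syce1 call was lost with the replicate block (0.0582), with normexp (0.0593) and when any 1 array was left out (0.0622 to 0.163). Nkx2-5, a cardiac transcription factor, was read at 210 and 76.9 intensity units in Flag-Dppa2, 15.04 and 9.0 in mock and 122 and 111 in wild type, with no mock array well above background.

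How far these calls depend on the settings is drawn for the 5 Dppa probes. Some alternatives are the same fit in a comparison, so the counts that follow are not counts of separate analyses. In mock against wild type these are the first slide alone and leaving out either Flag-Dppa2 array. In Flag-Dppa2 against mock they are wild type averaged, either wild-type array left out and the 4 knockout arrays alone. The deposited log2 values also gave nearly the same results as quantile normalization. Dppa2 in mock against wild type was called in 13 of 16 alternatives, with log2 differences between -4.2 and -3.6. Dppa3 in that comparison was called in 7 of 16, between -1.47 and -1.22, Dppa4 in 2 of 16, between 0.49 and 0.71, Dppa5a probe 2 in 5 of 15 and Dppa5a probe 1 in none of 16. In Flag-Dppa2 against mock, Dppa2 was called in 5 of 17 alternatives and no other Dppa probe in any.

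**Figure D5:**
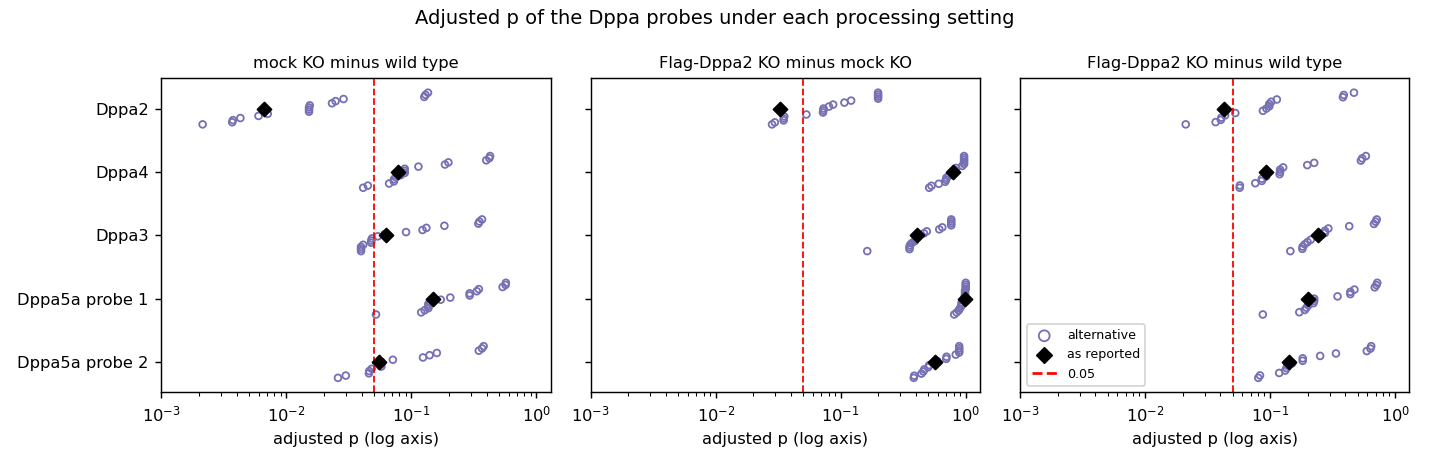
Adjusted p (log axis) of each Dppa probe as reported (black diamonds) and under each alternative (open circles), in the 3 comparisons, with the 0.05 threshold dashed. In mock against wild type the circles of Dppa3, Dppa4 and Dppa5a probe 2 lie on both sides of the threshold, and those of Dppa2 reach up to 0.136.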

How the data were processed

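Per the file headers, the deposited intensity values (processed signal and raw medians) came from Agilent Feature Extraction 10.7.3.1, which subtracts background and spatial trends within the array and does not scale between arrays. Its flags for outliers, saturation and signal well above background were deposited in columns of other values. The deposited log2 values were made by the authors with GeneSpring, per the series design text, with a normalization not given in the sources used here, and served as 1 alternative. The sources give mm9 for the array and GRCm38 for the gene table, so no coordinates are given.

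Control spots (1639 of 45018) and outlier spots were left out, spots of a probe were averaged in log2, and each array was scaled by its own 75th percentile. This kept 41059 of 41174 probes, of which RefSeq accessions gave 27143 one symbol and left 13916 without one. limma 3.58.1 (R 4.3.3, lmFit and eBayes, two-sided) was fitted to all 6 arrays in 3 groups over 24841 probes, with 3 residual degrees of freedom. Lists used the brightest probe of a gene. Figures were drawn with Python 3.11.15 and matplotlib 3.10.9. The fit was also run on simulated data with independent arrays and the same spread in all groups. These arrays differ from that in both respects, so the run does not check the calls given here. The files hold no mean signal, so normexp (offset 50) used median signals, a choice made after seeing the data. Named genes are all Dppa probes, up to 4 called genes per list and comparison, and the 3 closest patterns of each Dppa gene that spans 1 log2 unit. Other genes of the lists were named after their values were seen. The members and lists were chosen with earlier results of these data known. Nothing says that the arrays of a group came from separate cultures, beyond their mothers, so p-values measure only the spread between these arrays. Precision is limited by having 2 arrays per group.

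Deviations from the group means correlated between same-numbered arrays at 0.58 for Flag-Dppa2 and mock, 0.01 for Flag-Dppa2 and wild type, and -0.02 for mock and wild type. The pairing of mock and Flag-Dppa2 comes from the labels, which give the same knockout line.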

Additional observations from a re-analysis of the deposited data

Results flagged for a closer look

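Dppa5a probe 1 moved in opposite directions in the 2 knockout lines when Flag-Dppa2 was compared with mock, with a log2 difference of -0.021 in line 1 and 0.0026 in line 2. Each line has 1 array per group, so this difference between lines was not tested, and both values are far smaller than the scanner's error of 10.0% of the signal.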

How the results depend on the processing

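The number of probes called changed with most settings. For mock against wild type it was 1336 (543 higher, 793 lower) as reported, 464 with no filter (57 higher), 569 with the replicate block (123 higher), 2071 with an intensity trend and 0 with the wild-type arrays averaged, where 2923 had an unadjusted p under 0.05. The higher probes were 814 of 1601 with quantile normalization, 830 of 1615 with the deposited values and 660 of 1250 with the filter for all 6 arrays. When 1 array was left out the count lay between 0 (without wild-type replicate 1 or 2) and 1069 (without either Flag-Dppa2 array), with 387 and 428 without mock replicate 1 or 2. For Flag-Dppa2 against mock it was 145 (138 higher) as reported, 51 with normexp, 20 with the filter for all 6 arrays, 45 with no filter, 95 with an intensity trend, 4 with the replicate block, and 0 with the wild-type arrays averaged (1837 at an unadjusted p under 0.05), with the 4 knockout arrays alone (1837) or with these and the replicate block (4509). Leaving out 1 array gave between 0 (without any 1 wild-type or Flag-Dppa2 array) and 101, with 40 without mock replicate 1. For Flag-Dppa2 against wild type it was 147 (46 higher) as reported, 470 with normexp (236 higher), 328 with an intensity trend (186 higher), 14 with the filter for all 6 arrays, 8 with no filter (0 higher), 0 with the replicate block (5655 at an unadjusted p under 0.05) and 0 with wild type averaged (2059). It lay between 0 (without any 1 wild-type or Flag-Dppa2 array) and 15 (without either mock array) when 1 array was left out. Averaging the wild-type arrays leaves fewer samples and takes their small spread out of the fit, and no filter tests more probes. What caused any of these changes in count was not tested.

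Of the Dppa probes, Dppa2 in mock against wild type kept its log2 difference of -4.14 with wild type averaged but not its call, and lay between -4.20 and -4.09 when 1 array was left out. In Flag-Dppa2 against mock its difference of 2.20 was not called with the filter for all 6 arrays, no filter, wild type averaged, the replicate block, or the 4 knockout arrays with or without that block, and it lay between 1.99 and 2.42 when 1 array was left out. In Flag-Dppa2 against wild type its difference of -1.94 was not called with the filter for all 6 arrays, no filter, wild type averaged or the replicate block, and lay between -2.15 and -1.73 when 1 array was left out. In mock against wild type, Dppa4 was called at 0.60 with normexp and an intensity trend. There Dppa3 was called at -1.32 with normexp, -1.44 with quantile normalization and the deposited values, and -1.34 with an intensity trend and within the first slide, with a range of -1.47 to -1.22 when 1 array was left out. Dppa5a probe 2 was called there at 0.71 with normexp, 0.55 with quantile normalization and the deposited values, and 0.68 with the filter for all 6 arrays and an intensity trend. Dppa5a probe 1 in Flag-Dppa2 against mock lay between -0.07 and 0.05 when 1 array was left out and changed sign without mock replicate 2 (0.04) or Flag-Dppa2 replicate 1 (0.05). The replicate block changed no other call of a Dppa probe. Slide could not be fitted as a block for Flag-Dppa2, whose arrays fill the second slide, and normexp on mean signals was not run because the files give medians. Below-background signals limit Loxl1, Zscan5b, Stra6l and 6 of the 7 tested genes known to need Dppa2 or Dppa4. With the filter for all 6 arrays the 1 call on that list was Sftpd, higher in mock.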
